A study of Nematostella vectensis with 66 samples.

Results

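The 100 genes described here were those of the starlet sea anemone Nematostella vectensis whose transcripts stood highest at ZT6, 6 h after dawn, in a day of hourly field sampling. They were chosen by their measured values. Counts were divided by the library total and scaled to CPM, so that every library has the same sum, and taken as log2(CPM + 2). Of 24265 gene models, 7691 had a mean of at least 15 CPM over 60 libraries, and 623 of these had their highest hourly mean at ZT6. The 100 members are the genes among the 623 with the largest F ratio, the variance between hours over the variance within hours. Every hourly value in the 60 libraries therefore took part in choosing them, and the hourly courses below are a description with no test. The values in 6 other libraries, the contrast of pools with single animals, and lists chosen in one kind of library and read in the other were not fixed by that choice. The contrast was not free of it, since differences between pools and single animals add to the variance within hours and lower F.

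The starlet sea anemone is a small burrowing cnidarian of estuaries and salt marshes. It has homologues of the animal circadian clock genes, several of which are known to cycle with light, and in the field it meets changes of light, temperature and water level within the same day. Zeitgeber time (ZT) counts hours from dawn. The deposited table gives gene model identifiers with the prefix NVE and no gene names, and 0 of them were in the reference table used here, so no function and no sequence is given for any member.

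All groups were whole adults of a laboratory-reared stock whose ancestors came from a Massachusetts marsh, kept at a salinity matched to the site (30 ppt) and moved into 10 pens in a tidally restricted marsh pool. Groups differed by hour, from ZT3 to ZT12, and by sample type, a library being made from a single animal or from a pool of animals. No treatment or mutation was applied. The pen of each animal is not given in the labels, so pen and hour cannot be told apart, and a single day was sampled. The libraries of an hour are separate animals or separate pools, per the labels.

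The 60 libraries comprised 35 from single animals and 25 from pools, with 6 or 7 libraries per hour and 2 pools at ZT6. Their totals ran from 424453 to 909746 counts with a median of 647890. Left out of the choice were all 4 libraries of ZT4, individual B of ZT3 and pool E of ZT5. The ZT4 library C from a single animal held 251647 counts, below all 60. The ZT4 library D is labelled a pool although the protocol gives that letter to a single animal, and the label was followed. The median member had a mean count of 50.7 and the lowest 10.5, and 98 of the 100 had a count above 0 in every one of the 60 libraries. Scaling by column sums placed the median of the 7691 genes 0.13 log2 units above its mean over hours at ZT9, and TMM scaling placed it 0.03 above. A decline of the members at ZT9 is thus to be read against an upward shift, which runs opposite to it. Libraries came from whole animals, so fewer cells of a type and less RNA per cell cannot be told apart.

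The 100 members followed a common outline, high at ZT6 and low in the early afternoon, but varied in what they did in the late morning and at ZT12. Relative to each gene's own mean over 9 hours on the log2(CPM + 2) scale, the median member stood at 0.25 at ZT3, 0.06 at ZT5, 0.62 at ZT6, 0.20 at ZT7 and -0.02 at ZT8. It was lowest at ZT9, at -0.44, followed by -0.28 at ZT10, -0.08 at ZT11 and -0.02 at ZT12. The lowest hour was ZT9 or ZT10 for 57 members and ZT5 for 21. The second highest hour was ZT3 for 29 members, ZT5 for 26, ZT7 for 21 and ZT12 for 20. Between their highest and lowest hours the members differed by a median of 1.29 log2 units, with a range of 0.41 to 3.11. Together they held 3.06% ± 0.23 of all counts at ZT6 (SD, n = 6), 1.61% ± 0.22 at ZT9 and 2.33% ± 0.17 at ZT12 (n = 7 each).

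A member was said to rise again where its ZT12 mean stood at least 1.5-fold above its floor, the mean of ZT8, ZT9 and ZT10. This held for 21 of the 100 members, and for 2.86% of the 7691 genes. Among the other 523 genes that were highest at ZT6, it held for 26. Lists of the 100 genes with the largest F among genes highest at ZT3, ZT5 and ZT7 held 13, 0 and 6 such genes. The same hours that chose the lists enter these counts, so they are descriptions. The members nearest the 1.5-fold limit had ZT12 values 0.59, 0.59 and 0.62 log2 units above the floor on the inner side, and 0.58, 0.58 and 0.56 on the outer side. No gap thus marked the limit.

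**Figure D1:**
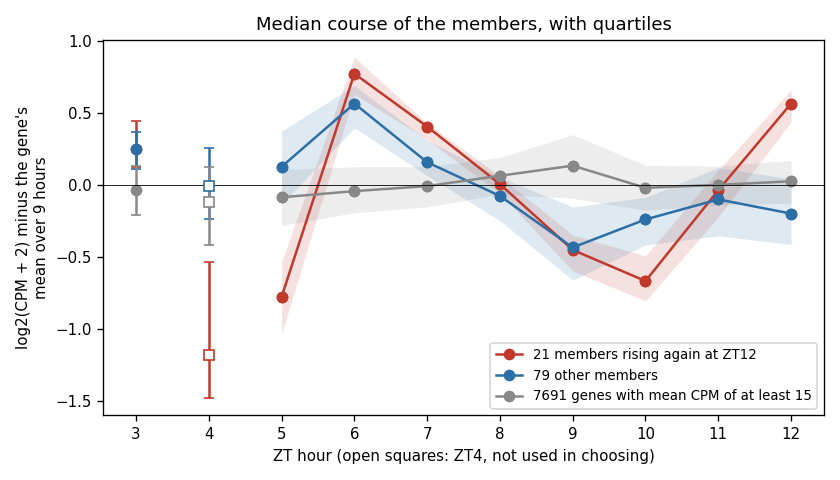
Median of log2(CPM + 2) minus the gene's own mean over 9 hours, by ZT hour, for the 21 members that rise again at ZT12, the 79 others and all 7691 genes. Bands, and bars at ZT3 and ZT4, span the quartiles over genes, and open squares are the 4 ZT4 libraries, which took no part in the choice. The 21 genes stand at -0.78 at ZT5, 0.77 at ZT6, -0.67 at ZT10 and 0.57 at ZT12.

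The 21 genes that rise again went through 2 dips. Their median stood at 0.25 at ZT3, -0.78 at ZT5, 0.77 at ZT6 and 0.41 at ZT7, then declined to -0.45 at ZT9 and -0.67 at ZT10 before -0.04 at ZT11 and 0.57 at ZT12. Their lowest hour was ZT5 in 11, ZT10 in 8 and ZT9 in 2, and their second highest hour was ZT12 in 13. The step from ZT5 to ZT6 had a median of 1.69 log2 units in the 21, with a range of 0.50 to 2.47. In the 79 other members it had a median of 0.36, with a range of 0.00 to 2.36. ZT12 stood a median of 0.98 log2 units above the floor in the 21, a return of 84.3% of the way from the floor to ZT6. The return was computed on the log2 scale.

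Several members separated hours without overlap between libraries. All 6 ZT6 libraries stood above all 6 ZT5 libraries in 29 members, 15 of them among the 21, and in 1.09% of all genes. All ZT6 libraries stood above all 7 ZT10 libraries in 27 members, 11 of them among the 21, and in 0.728% of all genes. All 7 ZT12 libraries stood above all 7 ZT10 libraries in 4 members, all among the 21, and in 0.273% of all genes. The ZT6 counts follow in part from the choice of genes high at ZT6. The place of the 4 members among the 21 follows in part from the ZT12 rule, whose floor includes ZT10.

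NVE19037, with the second largest F of all members (12.1), had the largest step and the largest second rise. Its 6 ZT5 libraries read 70.0, 83.7, 20.6 and 39.7 CPM in single animals and 20.5 and 33.5 CPM in pools. At ZT6 the single animals read 170, 243, 244 and 219 CPM and the pools 190.5 and 302 CPM. Every ZT6 library was thus above 2 times the highest ZT5 library. At ZT10 the single animals read 41.3, 46.8, 51.5 and 121 CPM and the pools 86.2, 58.5 and 54.4 CPM. At ZT12 the single animals read 164, 251, 232 and 311 CPM and the pools 171, 282 and 150.3 CPM. All 7 ZT12 libraries were above all 7 ZT10 libraries, and the ZT12 mean of 223 ± 62.6 CPM (SD, n = 7) was within the spread of the ZT6 mean of 228 ± 46.6 CPM (n = 6). On the log2 scale NVE19037 stood 2.47 higher at ZT6 than at ZT5 and 1.42 higher at ZT12 than at its floor.

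NVE3844, with an F of 10.8, followed the same course at a lower level. Its mean was 85.2 ± 39.5 CPM at ZT3 (SD, n = 6), 35.4 ± 14.2 at ZT5 (n = 6), 112 ± 27.2 at ZT6 (n = 6), 34.3 ± 14.6 at ZT10 (n = 7) and 96.7 ± 27 at ZT12 (n = 7). The lowest ZT6 library held 89.6 CPM and the highest ZT5 library 57.5 CPM, so these hours did not overlap. ZT12 overlapped ZT10, since ZT12 pool E held 53.2 CPM and ZT10 individual D held 59.5 CPM.

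NVE10637 had the second largest rise at ZT12, 1.22 log2 units above the floor, and the lowest mean CPM of all members, 16. It held 30.3 ± 14.9 CPM at ZT6 (SD, n = 6), 5.72 ± 5.19 at ZT10 (n = 7) and 21.5 ± 6.14 at ZT12 (n = 7). Of the 7 ZT10 libraries, individual D stood at 17 CPM and the other 6 at 1.63 to 5.62 CPM. Leaving this and each other library out in turn kept its rise between 1.10 and 1.35 log2 units. The other settings tried gave 0.82 to 1.46. ZT9 pool G held 0 CPM, and floor values this low lie near the pseudocount of 2.

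**Figure D2:**
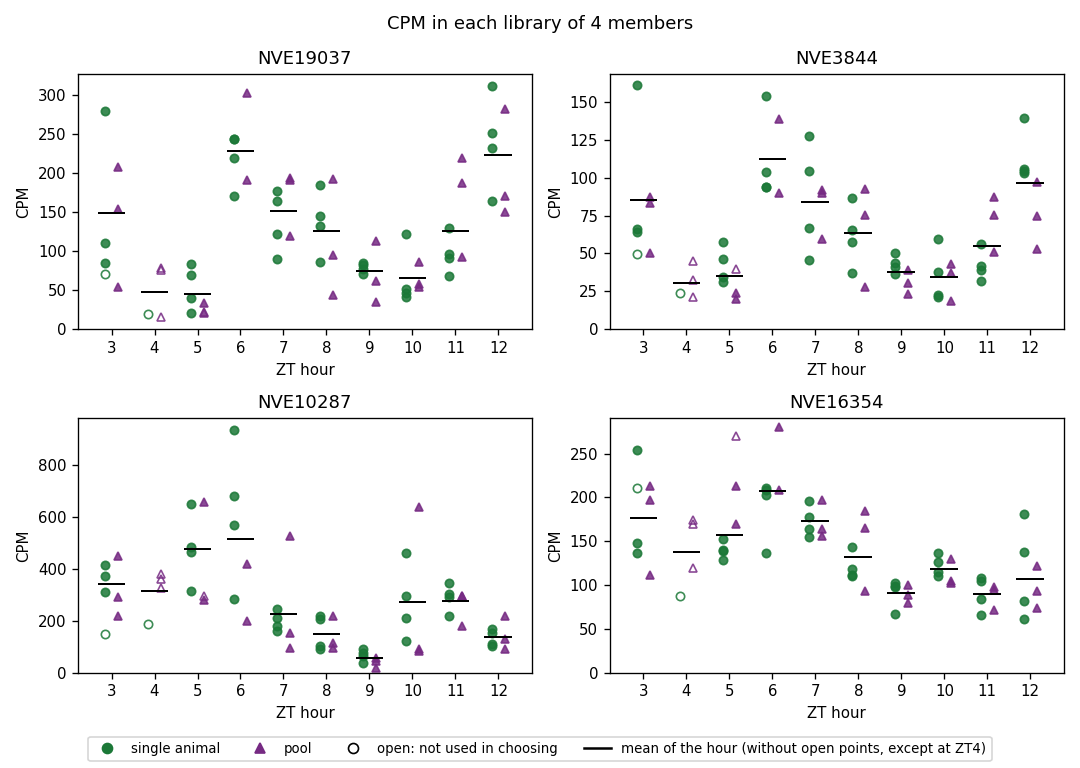
CPM by ZT hour in every library for 4 members, the 2 with the largest F that rise again (NVE19037, NVE3844) and the 2 with the largest F that do not (NVE10287, NVE16354). Circles are single animals, triangles are pools, open symbols are the 6 libraries not used in choosing, and lines are hourly means. NVE19037 stands at 170 to 302 CPM at ZT6 and 150.3 to 311 CPM at ZT12, against 20.5 to 83.7 CPM at ZT5, while NVE10287 is lowest at ZT9.

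The median course of the 79 other members was a broad morning shoulder with a trough at ZT9, though their lowest hours varied. The median stood at 0.25 at ZT3, 0.13 at ZT5, 0.57 at ZT6, 0.16 at ZT7, -0.43 at ZT9, -0.24 at ZT10 and -0.20 at ZT12. The lowest hour was ZT9 in 31, ZT10 in 16, ZT5 in 10, ZT12 in 9, ZT11 in 8, ZT8 in 3 and ZT3 in 2. NVE10287 had the largest F of all members, 14. It held 476 ± 160 CPM at ZT5 and 515 ± 272 at ZT6 (SD, n = 6 each), 56.1 ± 24.6 at ZT9, 273 ± 211 at ZT10 and 139 ± 44.1 at ZT12 (n = 7 each). Its 6 ZT6 libraries ran from 200.1 to 938 CPM and overlapped ZT5, at 282 to 659.9 CPM. All 7 ZT9 libraries, at 19.9 to 91.9 CPM, lay below all ZT5 and ZT6 libraries.

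NVE16354, with an F of 11.9, declined more evenly. It held 208 ± 45.4 CPM at ZT6 (SD, n = 6), 173 ± 17.6 at ZT7, 90.6 ± 13.1 at ZT9, 118 ± 13.3 at ZT10, 89.5 ± 16.1 at ZT11 and 107 ± 41.8 at ZT12 (n = 7 each). The lowest ZT6 library, individual B at 136 CPM, was still above all 7 ZT9 libraries, of which the highest held 102.2 CPM.

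At ZT12, 43 of the 79 stood above their floor and the rest below it, with NVE15884 and NVE24206 the furthest below. NVE15884 stood 0.89 log2 units below its floor at ZT12, at 7.57 ± 5.57 CPM (SD, n = 7) against 33.5 ± 18.4 CPM at ZT6 (n = 6). NVE24206 stood 0.68 below, at 7.07 ± 6.49 CPM, and had the largest distance of ZT6 from the mean of the other hours, 1.62 log2 units. Its ZT6 libraries spread from 12.9 to 111 CPM and overlapped those of ZT12, which reached 16.8 CPM.

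The step into ZT6 ranged from clear to absent among the 79. NVE448 had the second largest step of all members, 2.36 log2 units, from 24.9 ± 12.9 CPM at ZT5 to 131 ± 46.3 CPM at ZT6 (SD, n = 6 each). All its ZT6 libraries, at 51.9 to 175 CPM, stood above its ZT5 libraries, at 10.2 to 43.4 CPM. NVE10287 and NVE22738 had the smallest steps, 0.00 log2 units each. NVE22738 held 115.0 ± 28.9 CPM at ZT5, 113 ± 16.7 at ZT6 and 114 ± 57.3 at ZT7, so its place among genes highest at ZT6 rested on the mean of logarithms.

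**Figure D3:**
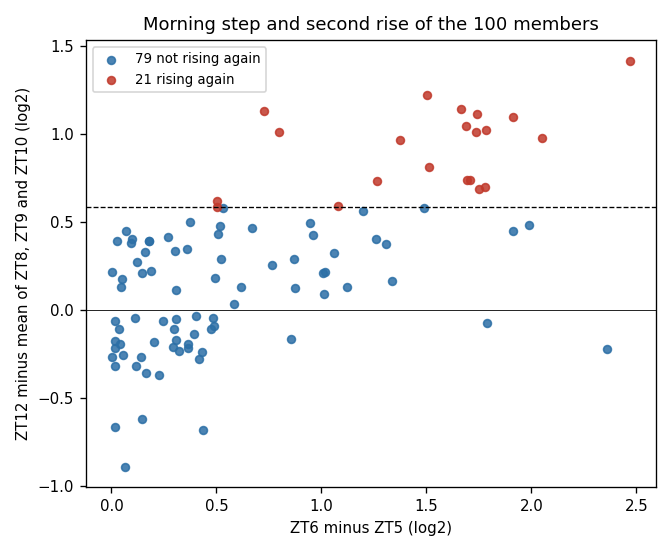
The step from ZT5 to ZT6 (horizontal, log2) against ZT12 minus the mean of ZT8, ZT9 and ZT10 (vertical, log2) for the 100 members, with a dashed line at a rise of 1.5-fold. The 21 members above the line have steps of 0.50 to 2.47, and the 79 below it have a median step of 0.36. Both measures took part in the choice and share no hour.

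Levels and spread varied widely among the members. The mean level ran from 16 to 2463 CPM with a median of 76.1. No correction for gene length was made, and the order of these values is not read here as a ranking of transcript abundance. NVE25665 had the highest mean CPM and a within-hour SD of 0.22 log2 units, with 2764 ± 88.7 CPM at ZT6 (SD, n = 6) and 1907 ± 320 at ZT9 (n = 7). NVE24607, next by mean CPM, held 2761 ± 965 CPM at ZT6 and 1165 ± 537 at ZT9, and its hours overlapped. NVE18093, with the second lowest mean CPM (17.8), held 23.1 ± 3.4 CPM at ZT6 and 12.8 ± 4.57 at ZT12. The within-hour SD had a median of 0.48 log2 units and was largest in NVE9589 (1.15) and NVE18544 (1.09). NVE18544 read 14.6, 229, 339 and 102.03 CPM in the 4 single animals of ZT6 and 28.8 and 69.9 CPM in the pools. Its ZT6 mean was thus set by individuals B and C. At the edge of the choice, ranks 99 and 100 were NVE10708 (F of 4.12) and NVE12607 (4.11), and the first genes outside were NVE23699 (4.1) and NVE14859 (4.09).

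The 6 libraries left out of the choice gave a reading of hours near ZT6. ZT6 itself was chosen to be high, so its side of each difference is not independent. The ZT4 mean stood at least 1.5-fold below the ZT6 mean in 55 of the 100 members and in 19 of the 21 that rise again, against 16.5% of all genes. Set against ZT3, whose mean came from libraries used in the choice, the ZT4 mean of the 21 was lower by a median of 1.52 log2 units, and 17 of the 21 stood at least 1.5-fold lower. Among all genes 13.3% did so, with a median difference of -0.09. The 79 others were lower than ZT3 by a median of 0.19, and 15 of them by at least 1.5-fold. The low morning values of the 21 genes were present at ZT4 as well as at ZT5.

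Single ZT4 libraries differed in how low they stood. In the 21 genes the median distance from the ZT6 mean was -2.76 log2 units in the ZT4 individual C, -2.26 in pool D, -0.89 in pool E and -1.24 in pool F. The corresponding medians over all genes were -0.28, -0.03, 0.02 and 0.01. The 2 libraries further from the ZT6 mean included the one with the fewest counts, 251647, and the one whose letter and label disagree. The part of depth and of the label in these values was not tested. The left-out ZT5 pool E stood at -2.05 in the 21, a further -0.54 below the mean of the ZT5 libraries used, and the left-out ZT3 individual B stood 0.66 below its hour. In 7 members, none of the 21, the ZT4 mean was above that of ZT6. Among them NVE448 read 43.7 CPM in individual C and 26.7, 612 and 615 CPM in pools D, E and F of ZT4. Its ZT4 mean thus rested on pools E and F, each above every ZT6 library.

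**Figure D4:**
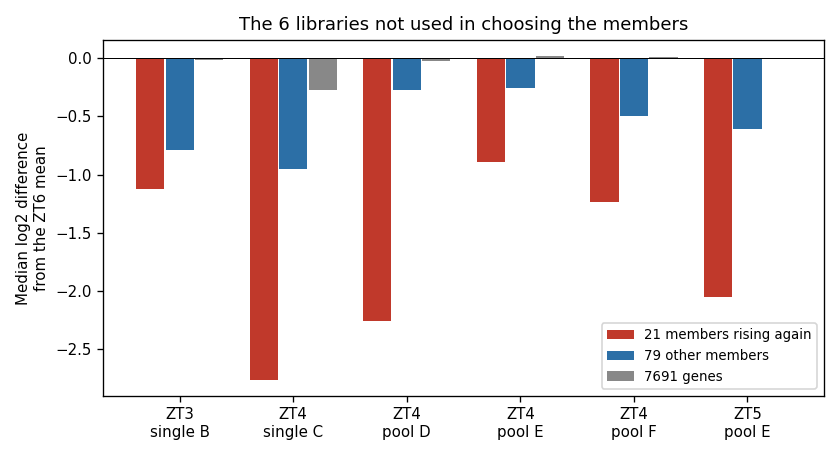
Median difference of log2(CPM + 2) from the ZT6 mean in each of the 6 libraries not used in the choice, for the 21 members that rise again, the 79 others and all 7691 genes. Bars start at 0. In the 21 genes the medians run from -2.76 (ZT4 individual C) to -0.89 (ZT4 pool E), and those of all genes lie between -0.28 and 0.02.

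Single animals and pools were then set apart, since the choice used their joint mean. In single animals alone 56 of the 100 members were highest at ZT6 and 15 at ZT12, and in pools alone 71 were highest at ZT6 and 1 at ZT12. Of all genes with a mean of at least 15 CPM there, 7.56% were highest at ZT6 in single animals and 12.7% in pools. The members were chosen as highest at ZT6 in the joint mean of these same libraries. Their larger shares thus follow from the choice. The 21 genes that rise again divided differently in the 2 kinds. In single animals 10 of them were highest at ZT12 and 9 at ZT6, while in pools 17 were highest at ZT6 and 0 at ZT12. All 21 met the same 1.5-fold rule in single animals and 13 met it in pools, against 5.03% and 5.66% of all genes. The 21 were defined by the joint mean, and 4 of the 7 ZT12 libraries were from single animals. These counts thus follow in part from that definition. A difference in course between the 2 kinds of library was not shown by a test for any member. The edgeR quasi-likelihood interaction of hour and sample type called 0 of the 100 members, 3 of which had an unadjusted p below 0.05, and 0.0% of 10229 genes, of which 634 had an unadjusted p below 0.05. The smallest adjusted p of the members was 0.771. Over all hours, edgeR called 0 members different between pools and single animals, and 0.0% of all genes. Of the members 5 had an unadjusted p below 0.05, of all genes 454. The median member stood 0.03 log2 units higher in pools. DESeq2 and limma also called 0 members in both tests. Of all 10229 genes, DESeq2 called 6 in the interaction and limma 0. In the test of pools against single animals both called 0. Differences between the 2 kinds of library lower F, so the choice leaned against such calls among the members.

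The choice was repeated in one kind of library and read in the other, which that choice had not used. The 100 genes highest at ZT6 with the largest F in single animals shared 45 genes with the members. In pools 38 of these 100 were highest at ZT6, against 12.7% of all genes. The 100 genes chosen in pools shared 24 with the members. Of the 97 with a mean of at least 15 CPM in single animals, 18 were highest at ZT6 there, against 7.56% of all genes. Of genes rising again at ZT12 in their own list, 8 of 25 chosen in single animals also did so in pools, against 5.66% of all genes, and 17 of 22 chosen in pools did so in single animals, against 5.03%. The second rise of the list from pools thus recurred in most of its genes in single animals, and the ZT6 maximum of either list recurred in a minority. Some of the rising genes had neighbouring identifiers. Examples are NVE19036 with NVE19037 and NVE3844 with NVE3845 in the list from pools, and NVE2187 with NVE2188 in the other. These counts may thus hold fewer separate signals than genes.

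**Figure D5:**
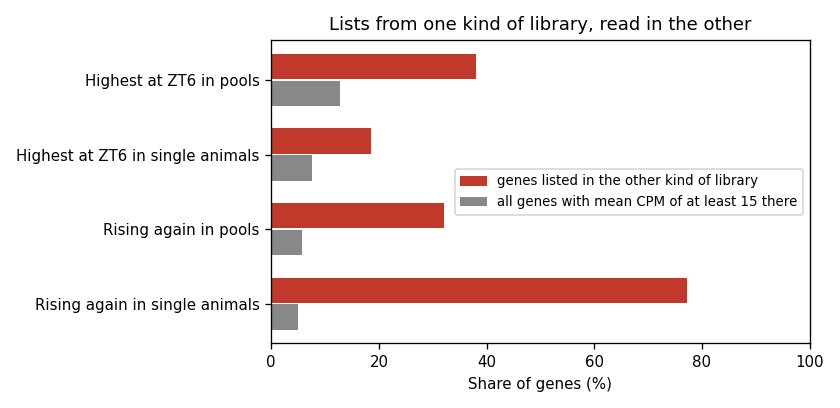
Share of genes, in percent, that meet a rule in one kind of library after being listed in the other, beside the share of all genes there. From the top these are 38 of 100 and 12.7%, 18 of 97 and 7.56%, 8 of 25 and 5.66%, and 17 of 22 and 5.03%.

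In edgeR's test of ZT6 against the mean of the 8 other hours in single animals, 4 of the 100 genes listed from pools were higher at an adjusted p below 0.05. Over all genes tested there, 0.5% were. Higher at an unadjusted p below 0.05 were 39 of the list and 8.36% of all genes, and 82 of the list stood higher to any extent, against 52.1%. The median difference of the list was 0.29 log2 units, and of all genes 0.02. The 4 genes, all members, were NVE5857, NVE18960, NVE19037 and NVE3844, named because they were so few. NVE5857 read 433, 542, 318 and 462 CPM in the 4 single animals of ZT6, and 283, 184, 220.1 and 204 CPM in those of ZT5. It was 0.74 log2 units higher at ZT6 (SE 0.14, edgeR adjusted p = 0.00613). NVE18960 read 85.7, 144, 67.1 and 103 CPM at ZT6 and 24.2, 24.05, 9.37 and 31.9 CPM at ZT10, and was 1.12 higher (SE 0.23, edgeR adjusted p = 0.0156). ZT5 and ZT10 are only examples among the 8 other hours that the test averaged. NVE19037 was 1.09 higher (SE 0.25, edgeR adjusted p = 0.0363) and NVE3844 0.98 higher (SE 0.23, edgeR adjusted p = 0.0434).

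Each of these 4 calls was lost on leaving out at least 1 single library. In some of the lost cases the difference was larger than with all libraries, and in others it was smaller. Without ZT6 individual B 0 genes of the list were called, without individual C 1, without individual D 2, and without ZT10 individual D 8. Across the 35 libraries left out in turn, the edgeR adjusted p ran from 0.00154 to 0.108 for NVE5857, which lost the call only without ZT6 individual B. It ran from 0.00817 to 0.219 for NVE18960, lost without ZT6 individuals B or C, and from 0.00858 to 0.215 for NVE19037, lost without B, C or D. NVE3844 ran from 0.0164 to 0.296 and lost the call in 11 of the 35 cases, with 0.296, 0.147 and 0.0763 without ZT6 individuals B, C and D. All 4 differences stayed above 0, the smallest being 0.61 for NVE5857, 0.87 for NVE18960, 0.98 for NVE19037 and 0.76 for NVE3844.

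In pools, where ZT6 had 2 libraries, edgeR called 0 of the 100 genes listed from single animals higher at ZT6, and 0.0% of all genes. Higher at an unadjusted p below 0.05 were 19 of the list and 3.2% of all genes, and 81 of the list stood higher to any extent, against 46.5%. The smallest adjusted p of the list was 0.297, for the member NVE9957, at 1.14 log2 units (SE 0.25). DESeq2 called 1 gene of the list higher and limma 2. Over all 10884 genes tested, DESeq2 called 8 higher and limma 21.

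The second rise gave a similar division. In single animals, edgeR's test of ZT12 against the mean of ZT8, ZT9 and ZT10 called 5 of the 23 genes that were listed from pools and met the ZT12 rule there, and 0.615% of all genes. Higher at an unadjusted p below 0.05 were 17 of the list and 6.54%, and 19 of the list stood higher to any extent, against 48.3%. The median difference of the list was 1.04 log2 units. The members NVE19037 and NVE3844 were among the 5, at 1.47 and 1.35 log2 units (SE 0.28 and 0.26, edgeR adjusted p = 0.00581 each). The other 3, not members, were NVE18451 at 2.40 (SE 0.41, edgeR adjusted p = 0.00341), NVE24294 at 1.72 (SE 0.34, edgeR adjusted p = 0.00653) and NVE18688 at 1.04 (SE 0.24, edgeR adjusted p = 0.0256). NVE3844 read 104, 139, 103 and 106 CPM in the 4 single animals of ZT12 and 21.4 to 59.5 CPM in those of ZT10. ZT10 is only an example among the hours that the test averaged.

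Without ZT12 individual B 2 of the 23 were called, without ZT12 individual D 3 and without ZT10 individual D 11. NVE3844 lost the call without ZT12 individual B (edgeR adjusted p = 0.0643) and NVE19037 without ZT12 individual D (edgeR adjusted p = 0.0561). NVE24294 lost it without ZT12 individual B (edgeR adjusted p = 0.0619). NVE18688 lost it in 4 of 35 cases, which were ZT8 individual A, ZT10 individual C and ZT12 individuals B and D, with the highest edgeR adjusted p at 0.196. NVE18451 kept the call in all 35. In pools edgeR called 0 of the 25 genes listed from single animals, and 0.0% of all genes. Higher at an unadjusted p below 0.05 were 8 of the list and 2.96%, and 21 of the list stood higher to any extent, against 52.1%, with a median difference of 0.55 log2 units.

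The members that rise again also varied together between libraries of the same hour. Pearson correlations of log2(CPM + 2), taken after subtracting the mean of each hour in one kind of library, had a median of 0.23 over the 210 pairs of the 21 genes in 35 single animals and 0.40 in 25 pools. Over all pairs of the 7691 genes the medians were 0.02 in both kinds. A correlation of at least 0.5 was seen in 30.0% and 37.1% of the pairs of the 21, against 2.41% and 6.63% of all pairs. Among the 79 others the medians were 0.14 and 0.10, and between the 21 and the 79 they were 0.05 and 0.15. Genes in the same libraries share depth and sampling, and the pairs are not independent.

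Several of the high correlations were between members with close identifiers. A total of 11 members had an identifier within 3 numbers of another member, and 6 of the 11 rise again, while 2.62% of the other 7591 genes had such a neighbour among the members. They formed 7 pairs, among them NVE19037 with NVE19039 and NVE19040, NVE3844 with NVE3845 and NVE14216 with NVE14217. Within hours NVE19037 and NVE19039 correlated at 0.92 in single animals and 0.94 in pools, and NVE3844 and NVE3845 at 0.77 and 0.81. NVE22503 and NVE22506 correlated at 0.03 and 0.21. The files do not say what the order of the numbers means. Shared reads between such gene models were not tested, so these may be fewer separate signals than genes.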

How the data were processed

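Whole-animal RNA was sequenced in 66 libraries. The authors deposited raw counts for each gene model in one table, as whole numbers. Per the labels, libraries followed a protocol of Meyer and colleagues and the genome is credited to Putnam and colleagues. The submitters' processing notes name Bowtie2 without a version. How reads were assigned to gene models, whether strand was used, and how shared or duplicate reads were treated is not given in the sources used here.

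CPM was computed from column sums, with a pseudocount of 2 on the log2 scale and a minimum mean of 15 CPM. Tests used counts in edgeR 4.0.16 (R 4.3.3), with the quasi-likelihood test, robust estimation, TMM factors and the expression filter by hour (minimum count 10). P-values were adjusted over all genes tested (Benjamini and Hochberg, threshold 0.05) and are two-sided. DESeq2 1.42.0, limma 3.58.1 with quality weights and the settings in the closing section were alternatives. The scripts were tested on simulated data. The lowest chi-square between 2 libraries was 2.65 per degree of freedom, so all libraries were counted apart. P-values measure the spread between libraries of this day.

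The members, the lists and the rule for named genes were chosen with earlier results of these data known. That rule names at most 2 genes at each extreme: the largest F with and without a second rise, the largest and smallest ZT12 rise and ZT6 step, the largest distance of ZT6 from other hours, the largest within-hour SD, the highest and lowest level, the ranks at the edge of the choice, and the smallest p of each test. Genes beyond it were named where a count was small or an example was needed, after their values were seen. The identifiers were not in the reference table (jaNemVect1.1), so cell type markers and gene lists were not used here.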

Additional observations from a re-analysis of the deposited data

Results flagged for a closer look

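Within each hour, which held 4 to 7 libraries, the highest or lowest value was set against the gap to its nearest neighbour (Dixon's test at 95%). Over the hours of the named members, and of the share of counts held by all 100 members, 170 groups were examined and 13 held a library standing apart. Chance gives about 1 in 20 for separate groups of normally distributed values. Here CPM was not transformed and the groups share libraries, so the 13 cannot be set against that share. All 13 were high values.

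Pool E of ZT7 passed this limit in 5 members, as the highest of 7 libraries. It held 528 CPM of NVE10287 (others 95.6 to 246), 46.9 of NVE15884 (others 4.74 to 16.9), 51.6 of NVE24206 (others 7.95 to 25.4), 233 of NVE22738 (others 50.2 to 127) and 133 of NVE18544 (others 12.3 to 38.8). None of these 5 genes rises again at ZT12, and what set this pool apart was not tested.

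Single animals stood apart in 6 cases. ZT3 individual D held 161 CPM of NVE3844 (others 50.04 to 87.1), and ZT10 individual D held 17 CPM of NVE10637 (others 1.63 to 5.62). NVE15884 read 26.4 CPM in ZT9 individual B (others 4.97 to 12.2) and 23.6 CPM in ZT11 individual B (others 5.97 to 13.3). ZT11 individual A held 79.8 CPM of NVE18544 (others 11.9 to 38.96), and ZT12 individual A held 52.98 CPM of NVE10708 (others 29.2 to 35.5). Pools F of ZT8 and ZT10 held 52.4 CPM of NVE9589 (others 1.46 to 22.2) and 45.5 CPM of NVE10708 (others 13.5 to 24.4).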

How the results depend on the processing

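Of the 100 members, TMM scaling kept 82, pseudocounts of 0.5 and 8 kept 98 and 97, minimum means of 5 and 30 CPM kept 89 and 80, and all 66 libraries, ZT4 included, kept 78. Single animals alone kept 45 and pools alone kept 24. Leaving out each of the 60 libraries in turn kept 71 to 99. The 21 members that rise again at ZT12 became 33 with ZT9 alone as the floor, 34 in single animals alone, 10 with a rise of 2-fold and 45 with the smaller limit tried. Other settings gave 14 to 24, and leaving out a library gave 17 to 26. NVE10287 was 1.36 log2 units above a floor of ZT9 alone and 0.82 log2 units below one of ZT10 and ZT11, at -0.82, and NVE448 stood at -1.04 in pools alone. The cause was not tested.

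The interaction of hour and sample type, the difference of pools from single animals and the ZT12 test in pools called 0 genes of their lists under every alternative that was run, which for each included leaving out each library in turn (0 to 0). For ZT6 in pools, DESeq2 called 1 and limma 2 of 100 genes, and leaving out a library called 0. Over all 10884 genes tested there, DESeq2 called 8 higher and limma 21. For ZT6 in single animals, against 4 calls, DESeq2 called 9, limma 7, and leaving out a library 0 to 8. Over all 10407 genes tested there, DESeq2 called 95 higher and limma 67. For ZT12 in single animals, against 5 calls, DESeq2 called 8, limma 11, and leaving out a library 2 to 11. NVE19037 at ZT6 had an edgeR adjusted p of 0.0693 with no filter on low counts.

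Beyond sample type, the labels do not say what a replicate letter stands for. Deviations from the hour mean had a median correlation of 0.0076 between libraries with the same letter and 0.0016 between others, and the lowest was -0.53. With the replicate block, edgeR called 5 genes of the list at ZT6 in single animals and 7 at ZT12 in single animals. It called 0 list genes in both tests in pools and 0 members for the interaction. Over all genes tested at ZT6, it called 28 of 10407 higher in single animals and 1 of 10884 in pools. The letter is nested in sample type, so no block could be fitted to the difference of pools from single animals. ZT6 held 2 pools, and the median member had 50.7 counts per library over the 60 libraries. What part these had in the number of calls in pools was not tested.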
